A study of Mus musculus with 11 samples.

Results

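The genes described here encode enzymes that activate, import and oxidize fatty acids, mainly in mitochondria, and those that use ketone bodies. Ppara and Mlycd, which regulate the pathway, are included. Some members act elsewhere, such as Acaa1a in peroxisomes and Cpt1c in the endoplasmic reticulum, or in another pathway, such as Acad8 in valine breakdown. The genes were taken by symbol from the table of gene counts, which lists 36666 genes, and all 37 were found in it. All 37 also had enough reads to be tested, among 17983 genes in total.

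Poly(A)+ RNA of the cerebrum was sequenced from 11 male C57/Bl6 mice aged 1 year. The mutator group held 7 mice homozygous for the D257A knock-in of Polg (D257A/D257A). Their control littermates were 3 WT/WT mice and 1 WT/D257A mouse, so the control group carries 1 heterozygote. The knock-in impairs the proofreading of the mitochondrial DNA polymerase in every cell, and the sample is a whole tissue from which the cerebellum had been removed. Exon bins were counted in 10 mice, the heterozygote not among them.

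A fatty acid is first joined to coenzyme A by an acyl-CoA synthetase, then carried into the mitochondrion as a carnitine ester and shortened in repeated rounds of β-oxidation, each of which passes electrons to the respiratory chain. Neurons are known to oxidize fatty acids little, and astrocytes are held to be the main site of this pathway in the brain. Ketone bodies, which the liver makes from fatty acids, are a fuel that the brain does use, through the enzymes encoded by Bdh1, Oxct1 and Acat1.

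Library sizes ranged from 28249345 to 121182250 gene counts in the controls and from 37821243 to 91219204 in the mutators. In mutator mouse 248 the gene counts came to 3.00 per aligned read listed by the authors, against 0.744 to 0.775 in the other mice. Polg itself was at 66.1 ± 2.98 CPM (gene counts scaled to a common library size, SD, n = 4) in the controls and 63.9 ± 4.18 CPM (n = 7) in the mutators, and since the allele is a point mutation this level does not check the genotypes. Markers of neurons, astrocytes and oligodendrocytes were abundant in every mouse, with summed levels of 8076 to 9178, 4818 to 5443 and 4930 to 6903 CPM.

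Transcripts of fatty acid oxidation and ketone body use differed little between mutators and controls. None of the 37 genes passed an adjusted p-value of 0.05 in the quasi-likelihood test of edgeR, in which 1.24% of all genes tested passed (223 genes). Of all genes, 0.439% passed as higher in mutators and 0.801% as lower. An unadjusted p-value under 0.05 was found for 4 of the 37 genes (10.8%) and for 15.8% of all genes. With DESeq2, 1 of the 37 genes was called, against 3.94% of the genes to which it gave an adjusted p-value (622 of 15770). The 4 genes, Acaa1a, Acsl6, Cpt1c and Crat, were all lower in mutators, a direction that 8.58% of all genes had at this p-value. Of the 37 genes, 24 had a log2 fold change below 0, as had 49.6% of all genes, and the median log2 fold change was -0.016 over the 37 and 0.0014 over all genes. This balance rested on single mice. Without mutator mouse 207 the median of the 37 was 0.0025, with 18 genes below 0, and without mutator mouse 217 it was -0.042, with 27 below 0.

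The precision of these estimates was high for most of the genes. The standard error of the log2 fold change had a median of 0.060 and ran from 0.039 to 0.12, apart from 0.34 for Cpt1b. The 95% interval of the log2 fold change included 0 for 33 genes and lay wholly within 0.25 of 0 for 31 and within 0.5 of 0 for 36.

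**Figure D1:**
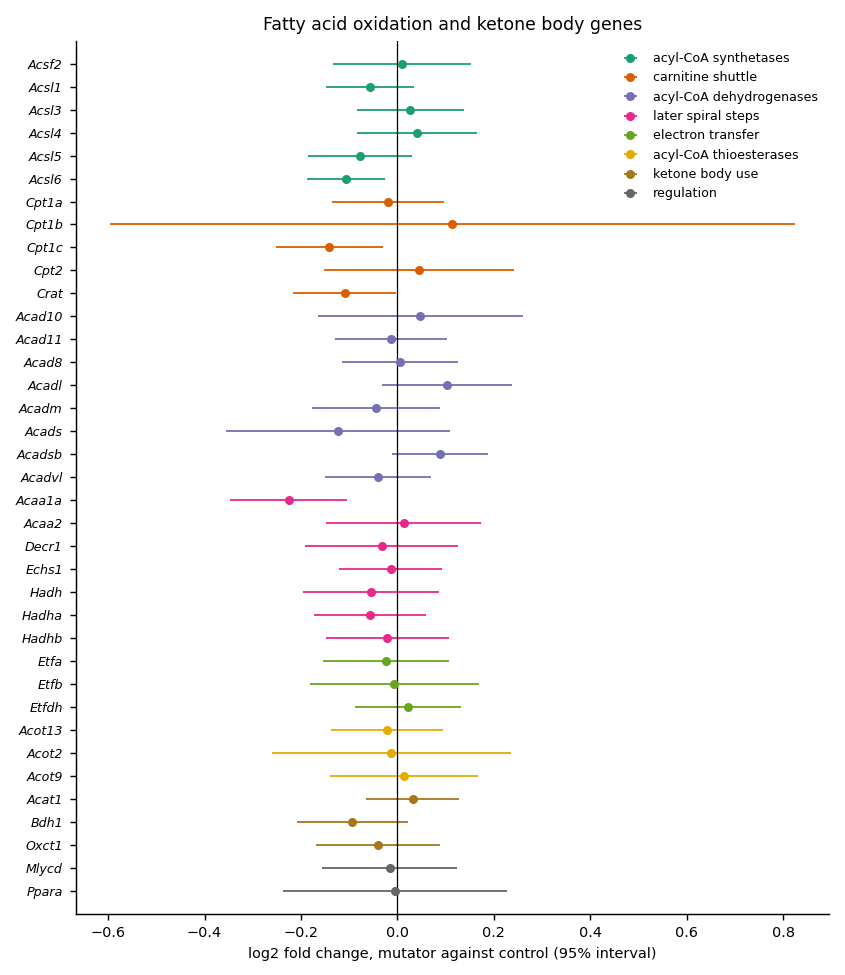
Log2 fold change of each of the 37 genes in mutators against controls on the x axis, with its 95% interval, grouped and coloured by role. The estimates lie between -0.23 (Acaa1a) and 0.11 (Cpt1b), and the intervals of Acaa1a, Acsl6, Cpt1c and Crat do not include 0.

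The levels of the 37 genes were compared as CPM per kilobase of annotated exon, averaged over the 4 controls. Oxct1, the enzyme that commits ketone bodies to oxidation by forming acetoacetyl-CoA, had the highest level at 83.2 ± 3.29 CPM per kilobase (SD, n = 4). It was followed by Acot13, a thioesterase that frees fatty acids from coenzyme A, at 56.0 ± 4.70 and Acsl3, a synthetase for long-chain fatty acids, at 51.8 ± 3.60, whose ranges over the controls overlapped. Cpt1c at 35.8 ± 2.81 and Acsl6 at 28.8 ± 0.34 CPM per kilobase came next, each with a control range that did not overlap those of its neighbours. At the low end were Ppara (0.790 ± 0.064), Acad10 (0.716 ± 0.063) and Cpt1b (0.061 ± 0.023 CPM per kilobase). Of the 36 pairs of neighbours in this order, 23 had overlapping control ranges, so the order within the middle of the list is not resolved. The whole order, its top included, also depends on the length used, which sums all annotated exons of a gene. This sum can exceed the longest protein-coding transcript, as for Acsl6 (9914 against 5807 bases) and Hadhb (6595 against 2046 bases).

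**Figure D2:**
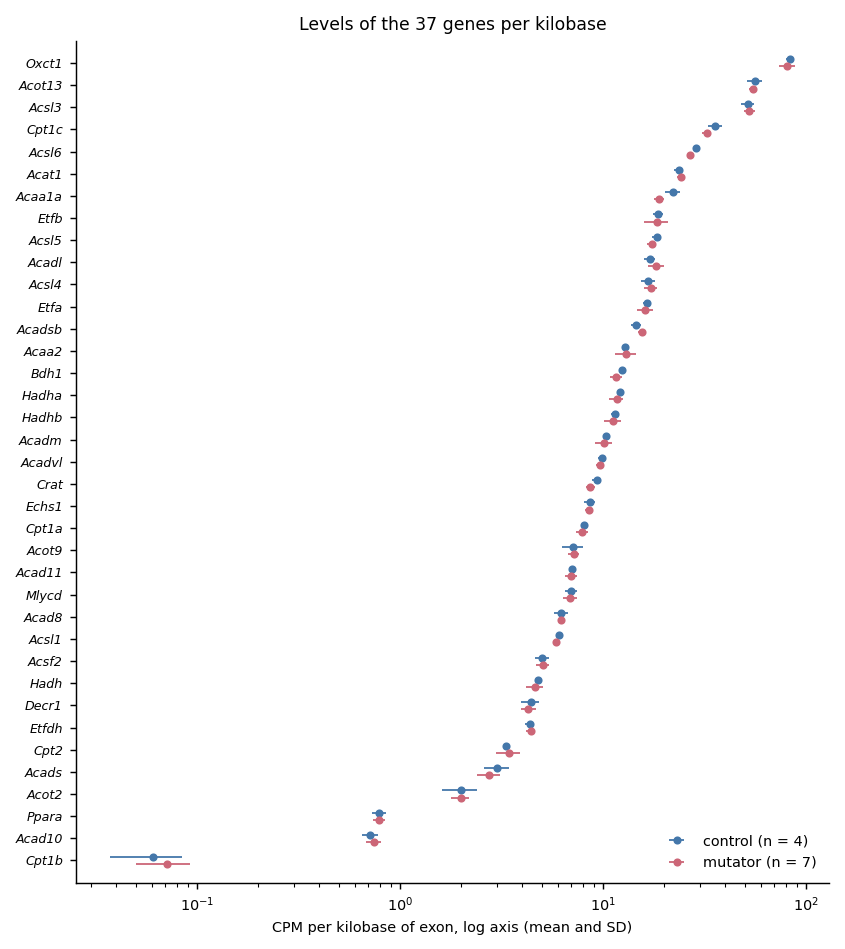
Mean level of each of the 37 genes in CPM per kilobase of exon on a log axis, with SD, for controls (blue, n = 4) and mutators (red, n = 7), ordered by the control mean. The levels span from 0.061 for Cpt1b to 83.2 CPM per kilobase for Oxct1, and the means of the groups lie close together in each row.

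Activation by the acyl-CoA synthetases was represented by 6 genes. Acsl6, a long-chain synthetase that is enriched in brain, was measured with narrow spread. Its levels in the controls were 286, 281, 289 and 286 CPM. In the mutators the lowest was 254, the median 263 and the highest 278 CPM, so that every mutator lay below every control. No other of the 37 genes had groups that did not overlap, which held in this direction for 1.42% of all genes tested and in either direction for 2.62%. The log2 fold change of Acsl6 was -0.11 (SE 0.039, edgeR adjusted p = 0.175), a decrease that did not pass the threshold, and the adjusted p ran from 0.0594 to 0.345 over the alternatives. The other synthetases overlapped between groups. The values were 57.7 ± 1.80 and 55.5 ± 1.44 CPM in controls and mutators for Acsl1 and 65.0 ± 3.58 and 61.5 ± 3.26 CPM for Acsl5, both long-chain synthetases. They were 186 ± 13.0 and 189.8 ± 11.8 CPM for Acsl3, and 90.4 ± 7.18 and 93.1 ± 7.02 CPM for Acsl4, which prefers arachidonic acid. Acsf2, a mitochondrial synthetase for medium chains, was at 17.2 ± 1.37 and 17.3 ± 1.32 CPM.

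The long-chain synthetases Acsl1 and Acsl6 are known to hold a pair of alternative exons that encode the gate of the fatty acid binding tunnel, of which a transcript carries 1 or the other. They are shown because the exons of each pair are counted in separate bins. In Acsl6 another annotated bin lies between the exons of the pair (bins 26 and 28). Some annotated transcript thus holds bases between them, and the counts need not come only from the alternative forms. In Acsl6 the first exon lies at chr11:54150438-54150515 and the second at chr11:54150573-54150650, and in Acsl1 at chr8:47606622-47606699 and chr8:47606764-47606841, all on the plus strand of NCBIM37 (mm9). All 4 exons are coding over their whole length of 78 bases. Capitals mark the bases that differ from the partner exon of the same gene.
Acsl6 first exon: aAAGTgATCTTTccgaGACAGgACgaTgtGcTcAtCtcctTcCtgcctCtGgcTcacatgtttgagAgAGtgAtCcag
Acsl6 second exon: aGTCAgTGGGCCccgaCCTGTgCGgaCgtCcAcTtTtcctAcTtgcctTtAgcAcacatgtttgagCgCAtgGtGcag
Acsl1 first exon: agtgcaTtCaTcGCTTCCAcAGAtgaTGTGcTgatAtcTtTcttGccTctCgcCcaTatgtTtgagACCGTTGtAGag
Acsl1 second exon: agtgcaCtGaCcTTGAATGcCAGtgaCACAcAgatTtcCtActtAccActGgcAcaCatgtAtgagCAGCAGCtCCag

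The partner exons share 46 of 78 bases in Acsl6 (59.0%) and 42 of 78 in Acsl1 (53.8%). The first exon of Acsl6 shares 49 of 78 bases (62.8%) with the first exon of Acsl1, more than with its own partner. The genes differed in how the counts were divided between the exons of the pair. In Acsl1 the first exon took 96.4% ± 2.01 (SD, n = 3) of the counts of the pair in WT/WT mice and 95.2% ± 1.19 (n = 7) in mutators. In Acsl6 both exons had many counts. The share of the first exon was 37.56%, 42.6% and 36.9% in the 3 WT/WT mice, a mean of 39.0% ± 3.16. Among the 7 mutators its lowest value was 42.6%, its median 43.7% and its highest 51.2%, a mean of 45.2% ± 3.39. Mutator mouse 211 (42.58%) and WT/WT mouse 239 (42.65%) were nearly equal, so the groups met at this point and overlapped. In limma's fit over all exon bins the usage of the second exon of Acsl6 had a log2 difference of -0.19 (SE 0.091) and that of the first exon one of 0.20 (SE 0.10), both with a limma adjusted p of 1. This pair was chosen after its values were seen, and its shares are a description.

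**Figure D3:**
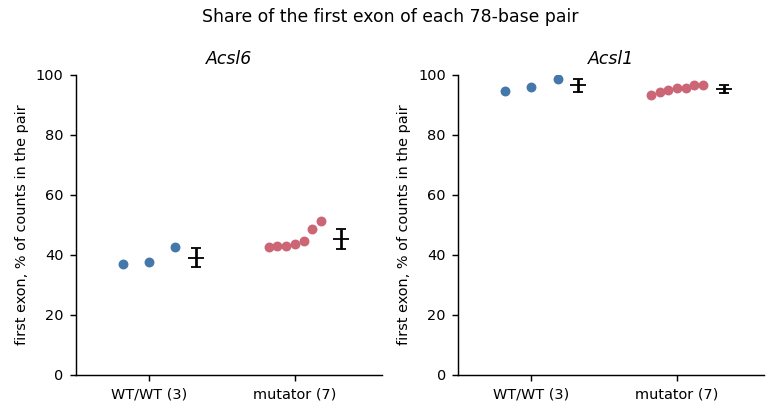
Share of the first exon among the counts of each exon pair, in percent, for Acsl6 (left) and Acsl1 (right), with 1 point per mouse and the mean with SD beside them. In Acsl6 the WT/WT mice (blue) lie between 36.9% and 42.6% and the mutators (red) between 42.6% and 51.2%, whereas in Acsl1 all mice lie between 93.2% and 98.6%.

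Import through the carnitine shuttle was represented by 5 genes. Cpt1a and Cpt1b encode the forms of carnitine palmitoyltransferase 1 that make acylcarnitine at the outer membrane, and Cpt1c encodes a neuronal form of the endoplasmic reticulum with little such activity. Per kilobase, Cpt1c made up 81.5% ± 1.41 of the CPM of the 3 genes in the controls and 80.2% ± 1.66 in the mutators, Cpt1a made up 18.4% ± 1.35 and 19.6% ± 1.65, and Cpt1b made up 0.14% ± 0.062 and 0.18% ± 0.053.

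Cpt1c was at 90.3, 107, 94.3 and 103 CPM in the controls. In the mutators the lowest was 84.3, the median 87.6 and the highest 96.0 CPM. The groups overlapped, with 4 of the mutators below every control. The log2 fold change was -0.14 (SE 0.053, edgeR adjusted p = 0.189). Since Cpt1c is a neuronal gene, the neuron markers are given beside it. In edgeR none of the 8 tested was called, against 1.24% of all genes. An unadjusted p-value under 0.05 was found for 3 (37.5%), against 15.8% of all genes. Of these 3, Slc17a7 and Camk2a, of excitatory neurons, had log2 fold changes of -0.21 and -0.16, and Gad2, of inhibitory neurons, one of 0.14. Gad1, also of inhibitory neurons, was at -0.0017, and the remaining markers lay between -0.092 (Tubb3) and 0.0043 (Syt1). The summed level of the 8 was 8440 to 9178 CPM in the controls and 8076 to 8742 CPM in the mutators. The part of these markers in the level of Cpt1c was not tested, and in a whole tissue fewer cells of a type and less RNA per cell cannot be told apart.

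Crat, carnitine acetyltransferase, which exchanges short acyl groups between carnitine and coenzyme A, was at 50.4, 53.6, 47.1 and 50.5 CPM in the controls. In the mutators the lowest was 44.9, the median 45.4 and the highest 51.6 CPM. The log2 fold change was -0.11 (SE 0.052, edgeR adjusted p = 0.307), and 1 mutator, mouse 249, lay above 3 of the controls. Cpt1a was at 34.5 ± 1.02 CPM in the controls and 34.1 ± 2.40 CPM in the mutators, and Cpt2, which returns the acyl group to coenzyme A inside the mitochondrion, at 7.91 ± 0.10 and 8.15 ± 1.07 CPM. Cpt1b, the muscle form, was close to the lower limit of the counts, with 4 to 39 reads per control mouse and 7 to 28 per mutator, and the interval of its log2 fold change ran from -0.60 to 0.82.

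The 8 acyl-CoA dehydrogenases start each round of oxidation and differ by chain length or branching. None had an unadjusted p-value under 0.05, and 4 of the 8 had a log2 fold change below 0. The genes for straight chains were Acads (short, 6.85 ± 0.95 and 6.26 ± 0.83 CPM in controls and mutators), Acadm (medium, 30.5 ± 0.80 and 29.6 ± 2.76 CPM), Acadl (long, 34.1 ± 2.00 and 36.6 ± 3.28 CPM) and Acadvl (very long, 26.7 ± 1.22 and 25.9 ± 1.16 CPM). The smallest p-value of the class was that of Acadsb, which acts on short branched chains. It was at 69.8, 61.7, 63.4 and 66.0 CPM in the controls, and in the mutators the lowest was 65.7, the median 70.9 and the highest 72.0 CPM. The log2 fold change of Acadsb was 0.089 (SE 0.048, edgeR adjusted p = 0.378). Acad8, an enzyme of valine breakdown, was at 25.8 ± 2.15 and 25.9 ± 1.08 CPM, Acad11 at 28.2 ± 0.37 and 27.97 ± 1.84 CPM and Acad10 at 4.35 ± 0.38 and 4.51 ± 0.40 CPM.

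Of the 7 genes for the later steps of the spiral, Acaa1a had the lowest p-value of all 37 genes. It encodes a 3-ketoacyl-CoA thiolase, the enzyme that cleaves off acetyl-CoA, and acts in peroxisomes rather than in mitochondria. Acaa1a lies at chr9:119250412-119259413 on the plus strand of mm9. In the controls it was at 37.3, 40.0, 38.8 and 44.9 CPM. In the mutators the lowest was 32.05, the median 34.7 and the highest 37.3 CPM. Of the mutators, 6 lay below every control and mouse 217, at 37.28 CPM, lay level with the lowest control, mouse 205, at 37.27 CPM. The mean was 40.2 ± 3.30 CPM (n = 4) in the controls and 34.3 ± 1.95 CPM (n = 7) in the mutators, a log2 fold change of -0.23 (SE 0.058, interval -0.35 to -0.10). Its adjusted p-value of 0.0584 in edgeR fell short of the threshold, at rank 272 of the genes tested. It passed with DESeq2 (adjusted p = 0.0168), without a filter on low counts (edgeR adjusted p = 0.0413) and with the log2 total count as a covariate (edgeR adjusted p = 0.0313). It also passed without control mouse 205 (edgeR adjusted p = 0.0312) and without mutator mouse 217 (edgeR adjusted p = 0.0338), and over all alternatives its adjusted p ran up to 0.236. Acaa1a shares 34.1% of the 50-base stretches of its transcript with Acaa1b, which was at 0.451 CPM in the controls and 0.469 CPM in the mutators.

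Acaa2, the mitochondrial thiolase, was at 19.6 ± 0.74 CPM in the controls and 19.7 ± 2.38 CPM in the mutators, and its log2 fold change of 0.013 (SE 0.077) is the only one above 0 among these 7 genes. Hadh and Echs1, the short-chain hydroxyacyl-CoA dehydrogenase and enoyl-CoA hydratase, were at 23.9 ± 0.97 and 22.97 ± 2.16 CPM (Hadh) and at 45.4 ± 2.83 and 44.9 ± 1.89 CPM (Echs1). Decr1, which handles unsaturated chains, was at 17.1 ± 1.74 and 16.7 ± 1.43 CPM.

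Hadha and Hadhb encode the α and β subunits of the mitochondrial trifunctional protein and start on opposite strands, 85 bases apart. The stretch between their annotated starts, chr5:30481703-30481787 of mm9, is shown because both genes begin there and because their levels can be compared mouse by mouse. It has a GC content of 69.4% and 9 CG dinucleotides, and is given on the plus strand, the strand of Hadhb, with no base marked.
Hadha to Hadhb: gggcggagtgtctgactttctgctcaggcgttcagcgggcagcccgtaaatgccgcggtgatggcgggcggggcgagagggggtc

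Hadha was at 64.2, 67.1, 63.6 and 65.0 CPM in the controls, and in the mutators the lowest was 57.3, the median 61.2 and the highest 69.2 CPM. Hadhb was at 78.2, 72.0, 74.2 and 77.0 CPM in the controls, and in the mutators the lowest was 65.1, the median 73.4 and the highest 88.6 CPM. For both genes the lowest mouse was mutator 207 and the highest was mutator 217. These extremes are not particular to the pair, since mouse 217 was the highest for 12 of the 37 genes and mouse 207 the lowest for 8. Among the controls the order differed, and mouse 237 was the highest for Hadha and the lowest for Hadhb. The log2 fold changes were -0.057 (SE 0.056) for Hadha and -0.021 (SE 0.061) for Hadhb.

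Electrons from the dehydrogenases pass through the electron transfer flavoprotein, encoded by Etfa and Etfb, and its ubiquinone oxidoreductase, encoded by Etfdh. Etfa was at 30.2 ± 1.16 and 29.7 ± 2.63 CPM in controls and mutators, Etfb at 21.2 ± 1.21 and 21.1 ± 2.84 CPM, and Etfdh at 29.5 ± 1.41 and 29.9 ± 1.43 CPM. Their log2 fold changes lay between -0.024 and 0.022. The thioesterases Acot2, Acot9 and Acot13, which release free fatty acids from coenzyme A, were at 4.39 ± 0.86 and 4.37 ± 0.43, at 16.2 ± 1.88 and 16.3 ± 1.03, and at 40.4 ± 3.39 and 39.7 ± 1.75 CPM. Acot2 and Acot9 share 27.6% and 20.2% of the 50-base stretches of their transcripts with other thioesterase genes, and Acad10 shares 20.4% with Acad12, so their counts depend on how shared reads were assigned.

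The enzymes of ketone body use were Bdh1, which oxidizes β-hydroxybutyrate to acetoacetate, Oxct1, and Acat1, which splits acetoacetyl-CoA. Oxct1 was at 311, 290.3, 313 and 318 CPM in the controls. In the mutators the lowest was 245, the median 310.3 and the highest 326 CPM, and the lowest value, in mouse 207, stood below every other mouse. The log2 fold change of Oxct1 was -0.040 (SE 0.061, edgeR adjusted p = 0.802). Bdh1 was at 47.1, 47.3, 46.2 and 48.4 CPM in the controls, and in the mutators the lowest was 40.5, the median 43.6 and the highest 49.6 CPM. Of the mutators, 5 lay below every control and mouse 207 lay above every control, and the log2 fold change of Bdh1 was -0.093 (SE 0.055, edgeR adjusted p = 0.429). Acat1 was at 88.8 ± 4.90 CPM in the controls and 90.7 ± 3.52 CPM in the mutators.

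The regulators were at similar levels in both groups. Ppara, the nuclear receptor that drives genes of fatty acid oxidation in liver, was at 3.03 ± 0.25 CPM in the controls and 3.04 ± 0.22 CPM in the mutators. Mlycd, which degrades malonyl-CoA and so relieves the block on carnitine palmitoyltransferase 1, was at 20.9 ± 1.39 and 20.6 ± 1.65 CPM.

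**Figure D4:**
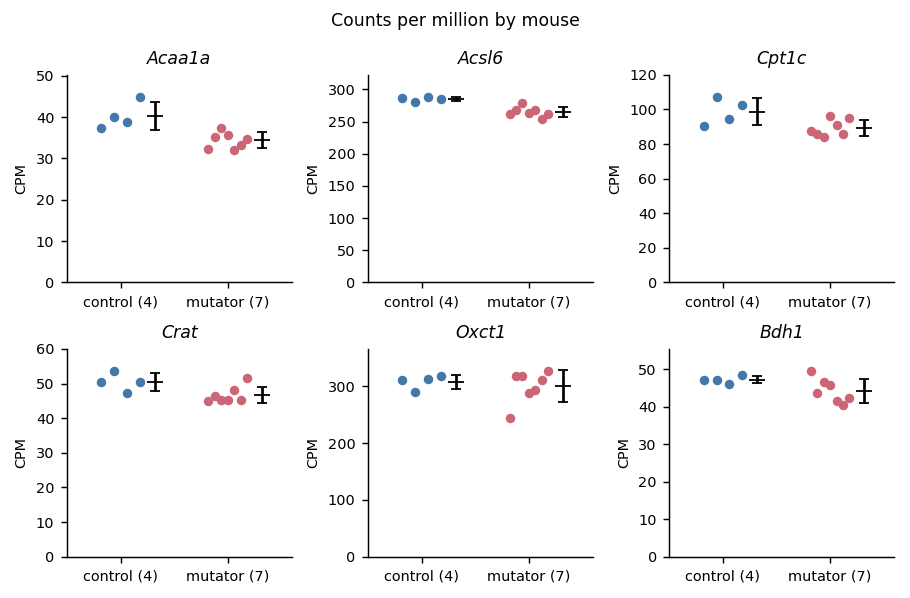
Levels in CPM by mouse for the 4 genes with an unadjusted p-value under 0.05 (Acaa1a, Acsl6, Cpt1c and Crat), for Oxct1 and for Bdh1, with 1 point per mouse (blue, controls; red, mutators) and the mean with SD beside them. The mutators lie below the controls without overlap in Acsl6, and the groups overlap in the other 5 genes.

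The mice differed from each other across the genes. The median log2 ratio of the 37 genes to the control mean was 0.087 in mutator mouse 217, with 27 of 37 genes above the control mean, and -0.074 in mutator mouse 207, with 9 of 37 genes above it. In the other mutators it lay between -0.058 and 0.000070, and in the controls between -0.032 and 0.036. Mouse 217 had the highest level of all 11 mice for 12 of the 37 genes, and mouse 207 had the lowest for 8. Mouse 217 also had the highest summed level of the 8 oligodendrocyte markers, 6903 CPM against 4930 to 5772 CPM in the other mice. The part of this difference in the levels of mouse 217 was not tested.

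**Figure D5:**
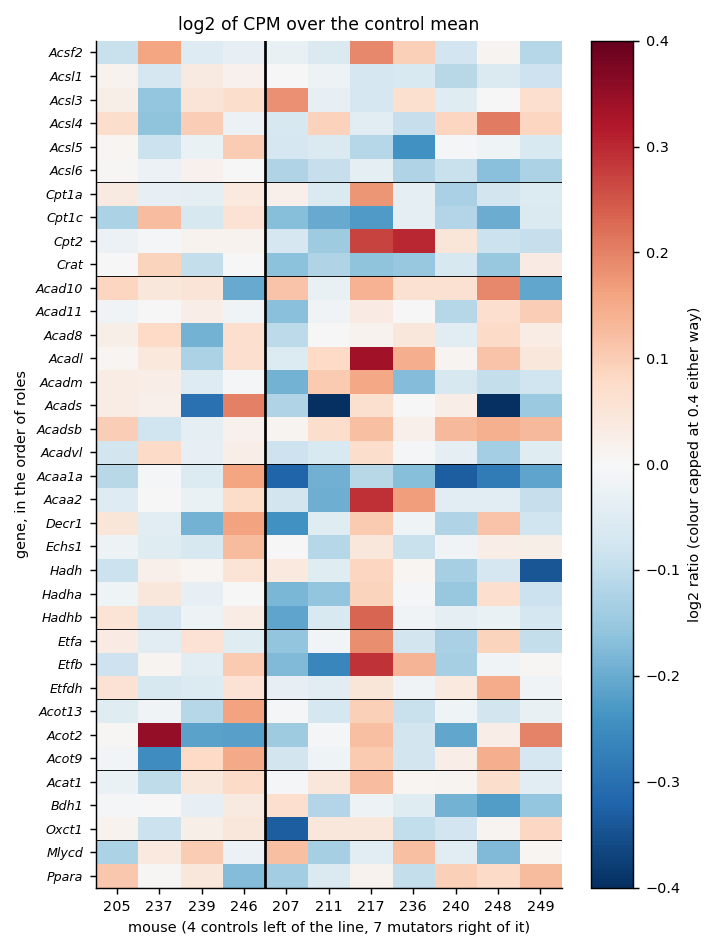
Log2 ratio of the CPM in each mouse to the control mean for 36 of the 37 genes (Cpt1b, with few reads, is left out), with mice in columns and genes in rows by role, and colour capped at 0.4 in either direction. Mutator mouse 217 has the most genes above the control mean among the mutators, and Acaa1a, Acsl6, Cpt1c and Acsl5 are below it in all 7 mutators.

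Other genes around this pathway were taken from lists on carnitine uptake, peroxisomal oxidation, further acyl-CoA enzymes, ketone body synthesis, malonyl-CoA, fatty acid binding and PPAR targets. Of the 63 such genes reported here, 57 were tested. In edgeR 0 of these 57 were called, against the 1.24% of all genes given above, and DESeq2 called 3 (Angptl4, Abcd2 and Rxrg), against its 3.94% of all genes. Among the 57, 10 had an unadjusted p-value under 0.05, 4 higher (7.18% of all genes) and 6 lower in mutators. In 1 of the 57, Peci, all mutators lay above all controls, as in 1.20% of all genes. The median log2 fold change of the 57 was -0.0079.

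The genes named from these lists had the smallest p-values in them. Angptl4, a PPAR target that inhibits lipoprotein lipase, was at 1.80 ± 0.37 CPM in the controls and 2.95 ± 0.82 CPM in the mutators (log2 fold change 0.73, edgeR adjusted p = 0.0681). Cd36, a fatty acid transporter, was at 1.37 ± 0.29 and 2.00 ± 0.33 CPM, and the transporter Slc27a4 at 90.2 ± 5.28 and 80.1 ± 4.29 CPM (edgeR adjusted p = 0.124 and 0.0968). Abcd2, which carries very long-chain acyl-CoA into peroxisomes, was at 51.5 ± 2.00 and 45.4 ± 3.03 CPM (edgeR adjusted p = 0.0990), and Decr2, a peroxisomal reductase, at 31.5 ± 0.88 and 29.3 ± 1.80 CPM. The retinoid receptor gene Rxrg was at 20.01 ± 1.52 and 17.0 ± 1.47 CPM (edgeR adjusted p = 0.103). Peci, an enoyl-CoA isomerase, was at 25.3 ± 0.72 and 27.7 ± 0.71 CPM, with no overlap of the groups but a log2 fold change of only 0.13 (edgeR adjusted p = 0.189). Acacb and Acaca, which make malonyl-CoA, were at 8.03 ± 0.84 and 9.77 ± 1.54 CPM and at 112 ± 4.22 and 115 ± 4.24 CPM. Of the genes for making ketone bodies or using them in the cytosol, Bdh2, a cytosolic dehydrogenase, was at 1.40 ± 0.31 and 1.79 ± 0.41 CPM and Aacs, which activates acetoacetate in the cytosol, at 44.9 ± 2.41 and 42.8 ± 3.34 CPM. Slc22a4, Crot, Ivd, Bdh2 and Aacs had adjusted p-values in edgeR between 0.322 and 0.627.

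Exon usage of the 37 genes was compared between the 7 mutators and the 3 WT/WT mice. Their 899 exon bins included 697 with enough reads to be tested, and in limma's diffSplice 0 of them passed an adjusted p-value of 0.05, against 0.0121% of all bins (25 of 206930). An unadjusted p-value under 0.05 was found for 16 of them, against 2.69% of all bins, and edgeR's diffSpliceDGE also called 0, with 14 at that p-value. The smallest p-value belonged to bin 2 of Acsl3, at chr1:78654458-78654612, a noncoding bin near the start of a gene that the exon counts merge with Utp14b. It held 1.17%, 1.97% and 1.18% of the counts of its group of bins in the 3 WT/WT mice and in mutators between 0.694% and 1.34% (log2 difference -0.49, SE 0.12, limma adjusted p = 0.268). Among the WT/WT mice, mouse 239 stood above all others and the other controls lay within the range of the mutators. The bin was called without control mouse 205 (limma adjusted p = 0.00993) and without mutator mouse 207 (limma adjusted p = 0.0216). In every other fit that left out a mouse, no bin of the 37 genes was called. The smallest limma adjusted p among their bins was then between 0.0959 and 0.999999. The highest of these values was that of the fit without WT/WT mouse 239. The neighbouring bin 3 of Acsl3, at chr1:78654613-78654678, and the noncoding bin 10 of Echs1, at chr7:147296543-147297594 on the minus strand, had log2 differences of -0.31 and 0.48, both with a limma adjusted p of 1.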

How the data were processed

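Per the labels and the methods of the study, 100-bp paired reads were aligned to mm9 with TopHat 2.0.6 and Bowtie 2.0.2.0 and assigned to Ensembl genes with HTSeq 0.5.3p9. The authors deposited whole-number counts per gene for 11 mice and counts per bin of a flattened exon annotation for 10, neither normalized. All per-sample columns were used. Reads in no exon bin, 20.6% to 23.4% of the counts, were left out. The authors' comparison tables (DESeq and DEXSeq, with fold changes and adjusted p-values) and the protein ratios of the study were not used here.

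All 7 mutators were compared with all 4 controls by the robust quasi-likelihood test of edgeR 4.0.16 (R 4.3.3) after TMM normalization, on genes kept by filterByExpr. The TMM factors also scaled the CPM. Whether groups overlapped was read from log2 CPM with a prior count of 2. Exon bins were tested with voom and diffSplice of limma 3.58.1. The p-values were adjusted over all genes or bins by the Benjamini-Hochberg method, with a threshold of 0.05. Each mouse is a separate animal. Counting error and differences between mice both enter the errors given, and a gene at 1 CPM has few reads in the smallest library.

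The genes and lists were chosen with earlier results of these data known. The text names all 37 genes, of the other pathway genes those called and the 2 with the smallest p-value of each list, the exon bins called or otherwise the 3 with the smallest p-value, and Polg. The exon pairs of Acsl6 and Acsl1, the gap between Hadha and Hadhb, and Acaa1b are outside this rule and were added after their values were seen. Of the listed genes, Acad12, Eci1 and Eci2 were not found under these symbols, and Dci and Peci are the symbols used in the table. Some genes of these lists are not reported here, and the counts of genes given for the lists leave them out. Not tested for low counts were Fgf21, Oxct2a, Oxct2b, Vnn1, Cyp4a10 and Cyp4a14.

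Positions, exon lengths and sequences came from the NCBIM37 genome with a GENCODE annotation later than the Ensembl release that the authors used. The number of exon bins it gave was equal to that in the deposited files for 34 of the 37 genes, and for the other 3 (Cpt1b, Acsl3 and Acad11) once the gene was merged with an overlapping one, as the files do. Shared 50-base stretches were counted against the protein-coding transcripts of other genes.

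Genes were tested again with DESeq2 1.42.0, with RLE or upper-quartile factors, unfiltered, filtered at a mean count of 10, against WT/WT controls alone, with log2 total count as a covariate, and with each mouse left out. For exon bins the alternatives were diffSpliceDGE, the same mean count and each mouse left out. On simulated counts the gene test recovered 171 of 198 genes changed by 1 log2 unit up or down, with 10 false calls among 17999 genes. The estimates for the 37 genes were all smaller, so this recovery does not apply to changes of their size. For the exon test, all bins were simulated with a single common dispersion, and changes of the same size were given to bins with many reads. It recovered 200 of 200 changed bins with 29 false calls among 206679 bins. Of these false calls, 13 lay in genes without a changed bin. The log2 differences of the exon bins named above were all smaller, so this recovery does not apply to changes of their size.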

Additional observations from a re-analysis of the deposited data

Results flagged for a closer look

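In 6 of the 102 groups of values examined, 1 mouse stood far from the rest of its group by Dixon's criterion, which chance meets in about 1 in 20 groups. The gap to the nearest mouse is given as a share of the group's whole range. Among the 37 genes, Hadhb had its highest value in mutator mouse 217 at 88.6 CPM, against 65.1 to 74.7 CPM in the other mutators (share 0.593). Acad10 had its lowest value in control mouse 246 at 3.78 CPM, against 4.49 to 4.62 CPM in the other controls (share 0.850185). Among the other pathway genes, Abcd2 had its highest value in mutator mouse 217 at 51.7 CPM, against 42.7 to 45.8 CPM (share 0.653). In the controls, Acaca was lowest in mouse 237 at 106 CPM, against 114 to 115 CPM (share 0.845). Decr2 was lowest in mouse 205 at 30.2 CPM, against 31.9 to 31.98 CPM (share 0.963), and Slc22a4 was lowest in mouse 246 at 7.78 CPM, against 9.57 to 9.83 CPM (share 0.875).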

How the results depend on the processing

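No paired analysis was run, since each mouse has a single genotype and the litter was not among the labels used. Litter therefore entered none of the fits. Acaa1a was the 1 gene of the 37 called with DESeq2, without a filter on low counts and with the log2 total count as a covariate, and leaving out each mouse in turn gave between 0 and 1 calls among the 37. The other pathway genes gave 3 calls with DESeq2 (Angptl4, Abcd2 and Rxrg), 1 without a filter (Angptl4) and between 0 and 1 when each mouse was left out, where the call without mutator mouse 217 was Abcd2 (edgeR adjusted p = 0.0227). Over all genes the calls rose from 223 to 622 with DESeq2 and to 346 without a filter, fell to 50 with the WT/WT controls only, and ranged from 50 to 412 when each mouse was left out, with the lowest number without the WT/D257A mouse and the highest without control mouse 205. Exon bins of the 37 genes gave between 0 and 1 calls when each mouse was left out. The cause of these changes was not tested.

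The fit with the WT/WT controls only is also the fit that leaves out the WT/D257A mouse. In it the log2 fold changes of Acsl3 (-0.021), Acsl4 (-0.0074), Acot2 (0.12) and Acot9 (-0.058) had the opposite sign. Ppara (0.00024) had the opposite sign with upper-quartile normalization. None of these genes was called in any fit. When each mouse was left out, the log2 fold change of the following genes crossed 0 within the range given: Acaa2 (-0.039 to 0.043), Acad10 (-0.0050 to 0.084), Acad11 (-0.030 to 0.013), Acad8 (-0.054 to 0.034), Acot13 (-0.058 to 0.033), Acot2 (-0.081 to 0.12), Acot9 (-0.058 to 0.061), Acsf2 (-0.023 to 0.067), Acsl3 (-0.021 to 0.050), Acsl4 (-0.0074 to 0.076), Cpt2 (-0.0031 to 0.072), Decr1 (-0.091 to 0.020), Echs1 (-0.034 to 0.029), Etfb (-0.063 to 0.029), Etfdh (-0.00028 to 0.042), Hadhb (-0.068 to 0.0097), Mlycd (-0.061 to 0.021), Oxct1 (-0.066 to 0.0047) and Ppara (-0.050 to 0.034). The direction of these 19 genes is therefore not resolved. For the 37 genes, 251 values under alternatives other than leaving out a mouse kept their direction and their side of the threshold. Beside them, 5 reversed direction and 3 came under the threshold. When a mouse was left out, 362 values kept both, 43 reversed direction and 2 came under the threshold. Acsl6, Cpt1c and Crat were below 0 under all 18 alternatives and were called in none of them. Among these 18, the fit with the WT/WT controls only and the fit without the WT/D257A mouse are the same fit.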
